A study of Mus musculus with 2 samples.

Results

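Glycolysis enzymes and the transcription factors of oxygen sensing were followed in endothelial cells of mouse sciatic nerve, as a set of 10 listed genes among 53380 features. Of these, 8 encode enzymes of glycolysis or its control (Hk1, Hk2, Pfkfb3, Aldoa, Pgk1, Eno1, Pkm and Ldha) and 2 encode the oxygen-regulated subunits Hif1a and Epas1. The study compared a pool of endothelial cells taken from the bridge of injured nerves 7 days after injury with a pool from uninjured nerves, each as 1 single-cell RNA library from adult mice. Both groups carried a tdTomato reporter (R26-TomatoLSL), switched on by Cdh5(PAC)-CreERT2, a tamoxifen-inducible Cre driven by the promoter of the endothelial cadherin gene, and the sample labels spell the alleles Chd5CreER/R26-TdTomato. Sorting kept cells positive for tdTomato and negative for CD45, so cells in which Cre did not recombine were not sampled, and the sources used here give neither the type of injury nor the number of pooled animals.

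Glycolysis splits glucose to pyruvate in the cytosol, and lactate dehydrogenase turns pyruvate into lactate so that the pathway can run on. Endothelial cells are known to draw most of their ATP from it, and PFKFB3, which makes the activator of phosphofructokinase, is known to set its rate in sprouting vessels. HIF-1α and HIF-2α (the products of Hif1a and Epas1) are hydroxylated by the EGLN enzymes and degraded when oxygen is ample, so their regulation is known mainly at the protein and not at the mRNA level, and when stable they bind hypoxia response elements at many glycolysis genes.

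UMIs were summed over cells and divided by the total of those cells to give CPM, the UMIs of a gene scaled to a fixed total per group of cells. Cells that shared a barcode with a cell of at least 5 times more UMIs in the other library were left out. That left 1274 of 1322 annotated endothelial cells in the injured library and 718 of 818 in the intact library, with medians of 11684 and 4461 UMIs per cell and 19989024 and 4542225 UMIs in all. The libraries shared 298 barcodes in total, and 77 of the injured and 66 of the intact cells used still carried a shared barcode. With 1 library per condition there is no test, so every interval here is a 95% interval for counting error only, and injury cannot be told apart from differences in animals, sorting, digestion or sequencing. Pan-endothelial markers summed to 6290 CPM in injured and 6714 CPM in intact cells, with 10 of 10 genes detected in both, and Ptprc, which encodes CD45, had 0 UMIs in both.

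The following facts of the whole libraries move with every comparison below, and their part in the results was not tested. The 9 immediate-early and heat-shock genes that respond to digestion summed to 4734 CPM in injured and 14317 CPM in intact cells. The 14 proliferation markers summed to 590 CPM in injured and 28.0 CPM in intact cells. Barrier markers, a list that holds the glucose transporter gene Slc2a1, summed to 1022 CPM in injured and 5478 CPM in intact cells.

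The promoters of the enzymes are shown first, because most of them carry the short core that HIF binds. RefSeq gave 17 promoters on GRCm38.p6 for 9 of the 10 genes, and the 250 bases before each start were searched on both strands for ACGTG and for GCGTG. At least 1 core stood in 14 of 17 (82.4%) of them and in 12679 of 32851 promoters of the same length (38.6%). ACGTG stood in 52.9% of the 17 and 16.6% of all, and GCGTG in 35.3% and 28.2%. Some of the 17 windows overlap each other, and their GC content ran from 49.6% to 71.2%, against a median of 52.4% for all promoters. Some windows also overlap annotated exons of the gene itself, so that cores inside exons are counted. In the third window of Eno1 all 250 bases are exon bases, and it holds 2 cores. Exon overlap was not counted for the promoters of other genes. Capitals below mark each core in the strand of the gene, so CACGT and CACGC are cores read on the other strand, and the palindrome CACGTG counts as an overlapping core on each strand.

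Pgk1 is shown because its level was higher in injured cells of every class compared, and Pfkfb3 because its level was lower in each. Ldha is shown because 1 of its promoters holds 5 cores, and Hif1a because it encodes a HIF subunit.
Pgk1, chrX:106186850-106187099, plus strand: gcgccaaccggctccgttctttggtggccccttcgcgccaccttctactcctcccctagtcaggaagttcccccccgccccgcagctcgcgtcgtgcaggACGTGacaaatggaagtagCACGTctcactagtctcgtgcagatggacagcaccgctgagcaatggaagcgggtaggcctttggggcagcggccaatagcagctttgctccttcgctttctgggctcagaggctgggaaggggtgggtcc
Ldha, chr7:46845554-46845803, plus strand: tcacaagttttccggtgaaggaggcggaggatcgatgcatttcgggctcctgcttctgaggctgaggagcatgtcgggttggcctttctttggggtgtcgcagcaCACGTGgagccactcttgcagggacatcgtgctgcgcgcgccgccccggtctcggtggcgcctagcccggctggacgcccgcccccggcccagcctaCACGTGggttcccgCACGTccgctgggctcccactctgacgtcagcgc
Hif1a, chr12:73907617-73907866, plus strand: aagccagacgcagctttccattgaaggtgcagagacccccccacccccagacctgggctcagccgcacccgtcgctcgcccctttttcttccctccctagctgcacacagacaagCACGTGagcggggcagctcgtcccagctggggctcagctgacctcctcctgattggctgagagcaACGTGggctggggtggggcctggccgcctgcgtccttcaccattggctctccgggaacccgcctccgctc
Pfkfb3, chr2:11502102-11502340, minus strand, the 239 bases of its second promoter outside annotated exons: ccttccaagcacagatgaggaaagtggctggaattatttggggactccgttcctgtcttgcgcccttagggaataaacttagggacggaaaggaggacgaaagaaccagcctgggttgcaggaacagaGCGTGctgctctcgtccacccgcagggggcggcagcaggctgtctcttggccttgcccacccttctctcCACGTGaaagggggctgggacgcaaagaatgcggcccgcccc
Of the promoters printed, that of Pgk1 holds 2 cores, 150 and 131 bases before the start. That of Ldha holds 5, of which 4 lie in the 2 palindromes. Those of Hif1a and Pfkfb3 hold 3 each, a palindrome among them in both. The other promoter of Ldha and the other one of Pfkfb3 hold 1 core each. A match is only a match of letters and says nothing of binding in these cells.

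The entry step of glycolysis was measured through the hexokinases, which trap glucose in the cell. Hk1 (chr10:62268855-62379908, minus strand), the broadly expressed form, had 61.0 CPM in injured cells and 53.5 CPM in intact cells, a ratio of 1.14 (0.993 to 1.31). The interval spans 1. Hk2 (chr6:82725025-82774454, minus strand), the form known from muscle and fat, had 26 UMIs in injured cells (1.30 CPM) and 5 in intact cells (1.10 CPM). Its mean is under the 10 CPM needed to count as measured, and it is too little to read as expression. UMIs of Hk2 stood in 1.73% of injured and 0.557% of intact cells. Of the other hexokinases, Hk3 had 0 and 2 UMIs in injured and intact cells, and Hkdc1 had 0 in both.

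The glucose transporter Slc2a1, upstream of the hexokinases, differed about as much as the most different of the 10 genes. It had 65.7 CPM in injured and 488 CPM in intact cells, 7.42-fold lower in injured cells (6.93 to 7.95). It is also a barrier marker, and the cells labelled as barrier endothelium (EC_BAR) made up 36 of the injured and 181 of the intact cells used. The shared-barcode rule had left out 47 of 83 injured and 0 of 181 intact EC_BAR cells.

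Pfkfb3 (chr2:11471433-11554077, minus strand) was the lowest of the 10 in injured relative to intact cells. It had 319 UMIs (16.0 CPM, 14.3 to 17.8) in injured cells and 490 UMIs (108 CPM, 98.5 to 118) in intact cells. That is 6.76-fold lower in injured cells (5.86 to 7.81), and only 0.895% of the 8268 measured genes had a lower log2 ratio. After every cell was thinned to 3000 UMIs, which 1223 injured and 482 intact cells reached, 4.01% of injured and 19.5% of intact cells held a UMI of Pfkfb3, against 16.6% and 29.8% before thinning. The related Pfkfb1, Pfkfb2 and Pfkfb4 had from 2 to 31 UMIs in either library and were not measured.

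Phosphofructokinase itself did not follow Pfkfb3. The liver-type subunit Pfkl had 64.5 CPM in injured and 65.8 CPM in intact cells, 1.02-fold lower with an interval that spans 1 (0.896 to 1.16). The platelet-type subunit Pfkp had 72.4 CPM in injured and 58.6 CPM in intact cells, a ratio of 1.24 (1.08 to 1.42). The muscle-type subunit Pfkm, at 9.26 CPM in injured and 7.71 CPM in intact cells, was not measured.

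In the splitting steps the levels lay close together. Aldoa (chr7:126795234-126800751, minus strand), which cleaves fructose 1,6-bisphosphate, had 318 CPM in injured and 335 CPM in intact cells, a ratio of 0.95 (0.898 to 1.01). UMIs stood in 60.1% of injured and 61.8% of intact cells after thinning. Aldoc had 1 UMI in injured and 0 in intact cells.

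The payoff steps were higher in injured cells, and Pgk1 most of all. Pgk1 (chrX:106187100-106203699, plus strand), which makes the first ATP of the payoff, had 3367 UMIs (168 CPM) in injured and 313 UMIs (68.9 CPM) in intact cells. The ratio was 2.44 (2.18 to 2.75), and 37.2% of injured and 16.6% of intact cells held a UMI after thinning. Pgk1 lies on the X chromosome, and the sources used here do not give the sex of the pooled mice. Xist, expressed from the inactive X of females, had 939 CPM in injured and 282 CPM in intact cells, and the Y-linked Ddx3y had 19.8 and 55.9 CPM. The part of this difference in the result was not tested.

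Of the next enzymes, Eno1 (chr4:150236721-150248879, plus strand), which makes phosphoenolpyruvate, had 215 CPM in injured and 155 CPM in intact cells, a ratio of 1.39 (1.28 to 1.51). Pkm (chr9:59656368-59679375, plus strand), which makes pyruvate and the second ATP, had 483 CPM in injured and 244 CPM in intact cells, a ratio of 1.98 (1.86 to 2.11). Ldha (chr7:46841475-46855627, plus strand), which makes lactate, had 330 CPM in injured and 228 CPM in intact cells, a ratio of 1.45 (1.36 to 1.55). All 3 intervals lie above 1, but none of the 3 genes passed 2-fold. After thinning, UMIs stood in 43.2% of injured and 35.1% of intact cells for Eno1, in 71.5% and 53.3% for Pkm, and in 59.4% and 49.4% for Ldha. Ldhb, which favours the reaction from lactate to pyruvate, had 17.3 CPM in injured and 29.1 CPM in intact cells, 1.68-fold lower in injured cells (1.36 to 2.06). Of the other enolases, Eno2 had 1 UMI in either library and Eno3 had 25 in injured and 9 in intact cells, while Pklr had 0 in both. The splice forms of Pkm cannot be told apart in these counts.

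The HIF subunits Hif1a and Epas1 differed in opposite directions. Hif1a (chr12:73901375-73947530, plus strand) had 4821 UMIs (241 CPM) in injured and 783 UMIs (172 CPM) in intact cells, a ratio of 1.40 (1.30 to 1.51). Epas1 (chr17:86753700-86833410, plus strand), known as the endothelial HIF subunit, had 6094 UMIs (305 CPM, 297 to 313) in injured and 3192 UMIs (703 CPM, 679 to 728) in intact cells. That is 2.31-fold lower in injured cells (2.21 to 2.41). After thinning, UMIs of Hif1a stood in 50.4% of injured and 35.9% of intact cells, and UMIs of Epas1 in 54.9% and 84.2%. Without thinning the Epas1 shares were 88.5% and 85.9%, which go against the CPM and carry no order, because injured cells were read more deeply.

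**Figure D1:**
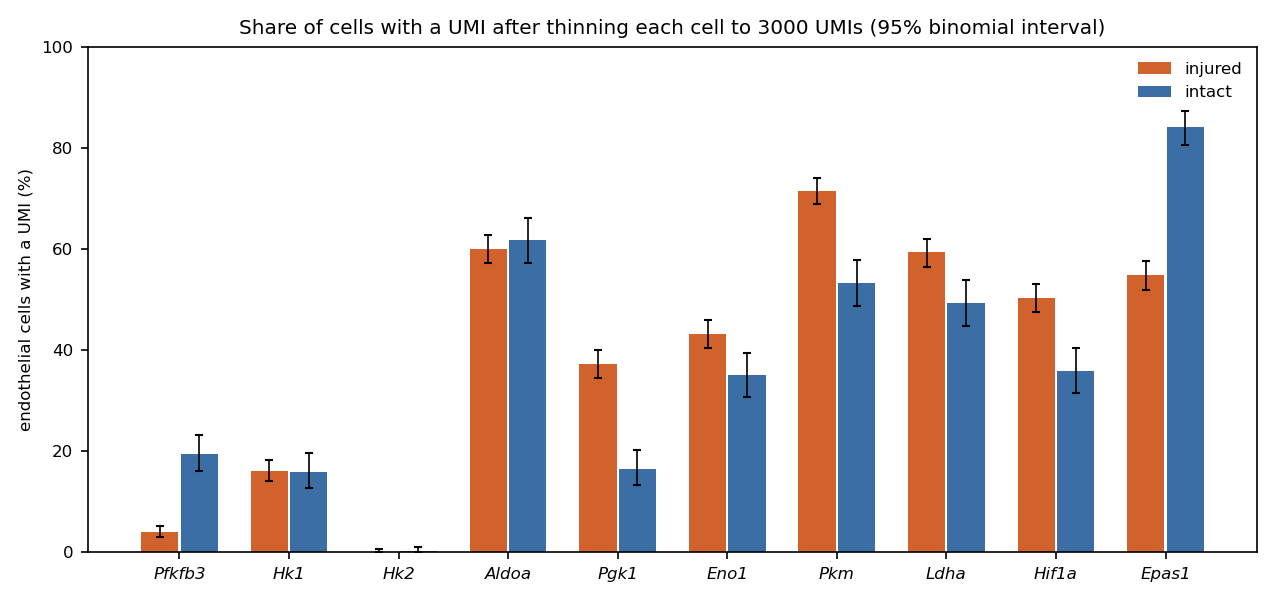
Share of endothelial cells with at least 1 UMI of each gene (%, y axis) after thinning every cell to 3000 UMIs, in injured (orange, left) and intact (blue, right) cells, with exact binomial 95% intervals. Pfkfb3 (4.01% of injured and 19.5% of intact cells) and Epas1 (54.9% and 84.2%) are lower in injured cells, Pgk1, Eno1, Pkm, Ldha and Hif1a are higher, and the intervals of Hk1, Hk2 and Aldoa overlap.

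Of the 10 genes, 9 reached a mean of 10 CPM over both libraries and count as measured. At 2-fold on log2(CPM + 5), 1 was higher in injured cells (Pgk1), 2 were lower (Pfkfb3 and Epas1) and 6 lay between. Among all 8268 measured genes 4.79% passed 2-fold higher and 6.82% passed 2-fold lower. The median log2 ratio of the 9 was 0.46, beside 0.04 over all measured genes. The call of Epas1 rests on how classes are weighed: with equal weight given to each of the 5 classes compared below, its log2 ratio was -0.71 in place of -1.19, which is under 2-fold. With all barcodes of the matrices taken in, with or without a class, it was -0.77, and that of Pgk1 was 0.88 in place of 1.23, also under 2-fold.

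Glycolysis as a whole was read from a list of 41 genes, from glucose uptake to lactate export and the entry of pyruvate into mitochondria, which includes the 8 enzymes. Of 20 measured, 2 were at least 2-fold higher in injured cells (Pgk1 and Bpgm), 2 were lower (Slc2a1 and Pfkfb3) and 16 lay between, with a median log2 ratio of 0.22, where 4.79% of all measured genes were higher and 6.82% lower. Without the 8 enzymes, 13 were measured, of which 1 was higher (Bpgm) and 1 lower (Slc2a1), with a median of 0.13 beside 0.04 over all measured genes. Bpgm, which makes 2,3-bisphosphoglycerate, had 27.0 CPM in injured and 10.1 CPM in intact cells, a ratio of 2.67 (1.97 to 3.69). Gapdh, the step before Pgk1, had 1149 CPM in injured and 628 CPM in intact cells (1.83, 1.76 to 1.90), and Pgam1, the step after it, had 185 and 91.6 CPM (2.02, 1.82 to 2.24). Pgam1 stayed just under 2-fold once 5 CPM were added. Gpi1 had 260 CPM in injured and 167 CPM in intact cells (1.56, 1.44 to 1.68), and Tpi1 had 118 and 107 CPM (1.10, 0.999 to 1.22).

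The list of oxygen sensing held 30 genes, which are the HIF subunits, their hydroxylases and partners, and HIF targets outside glycolysis. Of 22 measured, 0 were at least 2-fold higher in injured cells, 6 were lower and 16 lay between. Their median log2 ratio was -0.46. Among all 8268 measured genes 4.79% were higher and 6.82% lower, with a median of 0.04. Without Hif1a and Epas1, 5 of 20 were lower, with a median of -0.46. The 6 were Epas1, Egln3, Vegfa, Ndrg1, Ddit4 and Bhlhe40, and 0 of the list passed 2-fold lower when the 5 compared classes had equal weight, 3 when every cell with a shared barcode was left out, and 2 by the mean of per-cell CPM. Egln3, a hydroxylase that is itself a HIF target, had 5.35 CPM in injured and 18.1 CPM in intact cells, 3.37-fold lower (2.50 to 4.54). Vegfa, the growth factor, had 4.55 CPM in injured and 16.5 CPM in intact cells, 3.63-fold lower (2.64 to 4.98). Ndrg1 had 237 and 529 CPM, Ddit4, an inhibitor of mTORC1 signalling, 91.2 and 192 CPM, and the repressor gene Bhlhe40 107 and 262 CPM in injured and intact cells. Within the classes compared below, the list median was -0.31 in EC_ART, -0.01 in EC_CAP-PV-, -0.19 in EC_BAR, -0.17 in EC_VEN-PV- and -0.46 in EC_VEN-PV+. Medians of all measured genes there ran from -0.08 in EC_CAP-PV- to 0.09 in EC_VEN-PV-.

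Among the partners and hydroxylases of the HIF subunits, Arnt, which pairs with both, had 26.2 CPM in injured and 36.3 CPM in intact cells. That is 1.39-fold lower in injured cells (1.16 to 1.65). Egln1, the main HIF prolyl hydroxylase, had 27.4 CPM in injured and 53.3 CPM in intact cells, 1.95-fold lower (1.67 to 2.27). Egln2 had 50.0 and 49.1 CPM, a ratio of 1.02 (0.880 to 1.18). In the other direction, Higd1a had 89.2 CPM in injured and 52.4 CPM in intact cells (1.70, 1.49 to 1.96). Car9, which was not measured by its mean, had 27 UMIs in injured and 0 in intact cells. Bnip3, a mitophagy receptor, had 11.2 CPM in injured and 27.3 CPM in intact cells and stayed just short of 2-fold once 5 CPM were added.

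**Figure D2:**
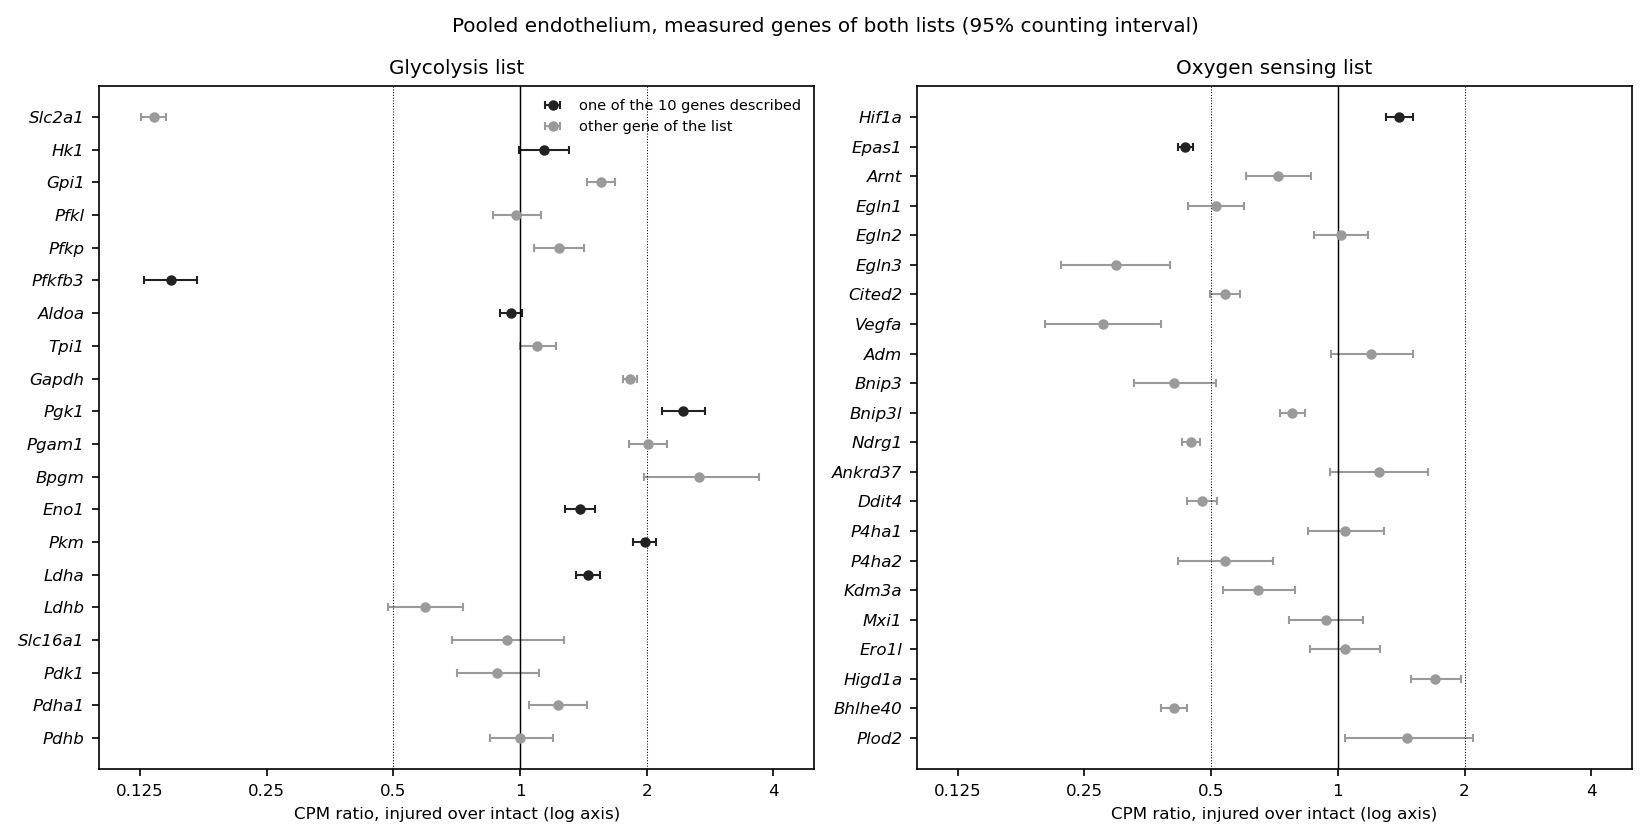
Ratio of CPM, injured over intact, on a log axis for the measured genes of the glycolysis list (left, 20 genes in the order of the pathway) and the oxygen sensing list (right, 22 genes), pooled over endothelial classes, with 95% counting intervals. Dotted lines mark 2-fold, black points are members of the 10 genes and grey points are the rest. Slc2a1 and Pfkfb3 lie far left, and the steps from Gapdh to Ldha lie right of 1.

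The authors' class names were compared with markers, and the sources used here do not expand PV. In the classes named EC_ART, EC_CAP-PV-, EC_BAR, EC_VEN-PV+, EC_TIP and EC_PROLIF, the 10 most enriched genes held more markers of the named type than of any other. In EC_VEN-PV- they held 0 venous markers in injured cells, and 1 venous marker and 4 haemoglobin genes in intact cells. Red cell genes summed to 0 CPM in its injured and 2911 CPM in its intact cells, and Hbb-bs stood in 10 of all 718 intact cells. Venous markers summed to 6338 CPM in its injured cells, beside 6554 CPM in injured EC_VEN-PV+. In intact cells they summed to 2178 CPM in EC_VEN-PV- and 7240 CPM in EC_VEN-PV+. EC_VEN-PV- is used only as a label. In intact EC_CAP-PV+ the 10 most enriched genes held 0 capillary markers, though 8 of 8 were detected there, at 11417 CPM in sum. EC_IMMAT has no marker list of its own. Classes with at least 20 cells in both libraries were EC_ART (144 injured and 91 intact cells), EC_CAP-PV- (76 and 128), EC_BAR (36 and 181), EC_VEN-PV- (121 and 44) and EC_VEN-PV+ (362 and 213). EC_TIP, EC_PROLIF and EC_IMMAT had 100, 162 and 260 injured cells but 4, 11 and 4 intact cells. EC_CAP-PV+ had 13 injured and 42 intact cells, and no ratio is given for these classes. The shared-barcode rule had left out 17 of 21, 27 of 38 and 48 of 52 intact cells of EC_TIP, EC_PROLIF and EC_IMMAT. In injured cells those classes held 1970991, 4202429 and 4100264 of 19989024 UMIs, so the pooled ratios compare unlike mixes of classes.

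Pfkfb3 was lower in injured cells in 5 of 5 classes. It had 13.8 CPM in injured and 99.6 CPM in intact EC_ART cells, 26.6 and 82.3 CPM in EC_CAP-PV-, 28.2 and 142 CPM in EC_BAR, 13.2 and 130 CPM in EC_VEN-PV-, and 21.7 and 92.2 CPM in EC_VEN-PV+. The fold lower ran from 3.09 (1.86 to 5.21) in EC_CAP-PV- to 9.83 (5.81 to 17.4) in EC_VEN-PV-, where the log2 ratio was -3.79 in place of -2.89 with each cell thinned to 3000 UMIs and -2.17 with 20 CPM added. In EC_VEN-PV- barrier markers summed to 1246 CPM in injured and 7757 CPM in intact cells and venous markers to 6338 and 2178 CPM, and their part in the result was not tested. With the cells left out by the shared-barcode rule kept, the Pfkfb3 log2 ratio in EC_BAR was -1.68 in place of -2.15. The injured and intact levels of Pfkfb3 did not overlap across classes, and each injured class lay under each intact class of these 5. The digestion response genes were also lower in injured cells of each of the 5, at 5006 to 8303 CPM in injured and 11363 to 19616 CPM in intact cells, and their part in the result was not tested.

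Pgk1 was higher in injured cells in 5 of 5 classes. It had 177 CPM in injured and 71.4 CPM in intact EC_ART cells, 131 and 55.6 CPM in EC_CAP-PV-, 200 and 66.1 CPM in EC_BAR, 136 and 71.1 CPM in EC_VEN-PV-, and 135 and 75.8 CPM in EC_VEN-PV+. Ratios ran from 1.78 (1.44 to 2.22) in EC_VEN-PV+ to 3.03 (2.19 to 4.18) in EC_BAR, where the injured level rests on 71 UMIs. Again each injured class lay above each intact class of these 5.

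Epas1 was lower in injured cells in 5 of 5 classes, by unequal amounts. It had 766 CPM in injured and 976 CPM in intact EC_ART cells (1.27-fold lower, 1.16 to 1.40) and 349 and 955 CPM in EC_CAP-PV- (2.74-fold lower, 2.38 to 3.15). It had 550 and 693 CPM in EC_BAR (1.26-fold lower, 1.08 to 1.48), 323 and 528 CPM in EC_VEN-PV- (1.63-fold lower, 1.40 to 1.91), and 269 and 555 CPM in EC_VEN-PV+ (2.06-fold lower, 1.88 to 2.26). With each cell thinned to 3000 UMIs, the Epas1 log2 ratio in EC_VEN-PV- was -0.17 in place of -0.70. The interval of EC_CAP-PV- lies clear of those of the other 4 in these libraries. With 1 library per condition a difference between classes was not tested.

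Hif1a was higher in injured cells in 4 of 5 classes, and in EC_BAR the interval of its ratio of 1.30 spans 1 (0.983 to 1.71). It had 235 CPM in injured and 70.0 CPM in intact EC_CAP-PV- cells, a ratio of 3.36 (2.34 to 4.96), and among cells with under 5% mitochondrial UMIs its log2 ratio there was 2.43 in place of 1.68. The ratio was 1.84 (1.39 to 2.48) in EC_ART, 1.60 (1.30 to 1.99) in EC_VEN-PV- and 1.22 (1.09 to 1.38) in EC_VEN-PV+. EC_CAP-PV- was thus the class where Hif1a was furthest above and Epas1 furthest below its intact level.

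Pkm was higher in injured cells in 4 of 5 classes, from 1.37 (1.13 to 1.67) in EC_VEN-PV- to 2.90 (2.26 to 3.77) in EC_CAP-PV-. In EC_ART its log2 ratio was 0.15 in place of 0.66 with each cell thinned to 3000 UMIs. In EC_BAR it had 287 CPM in injured and 307 CPM in intact cells, 1.07-fold lower with an interval that spans 1 (0.858 to 1.34). Ldha was higher in 4 of 5, from 1.19 (1.06 to 1.33) in EC_VEN-PV+ to 1.59 (1.24 to 2.04) in EC_BAR, and its interval spans 1 in EC_ART (1.19, 0.986 to 1.44). In EC_BAR the thinned share of cells with Ldha goes against its CPM, at 30.3% of injured and 43.0% of intact cells, so no order is read from that share.

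Eno1 was higher in injured cells in 3 of 5 classes, which were EC_ART (1.70, 1.31 to 2.25), EC_CAP-PV- (1.73, 1.28 to 2.39) and EC_VEN-PV+ (1.35, 1.16 to 1.59). Aldoa was higher in 1 of 5, EC_CAP-PV- (1.37, 1.12 to 1.67), and Hk1 in 1 of 5, EC_VEN-PV- (1.73, 1.04 to 3.05), where the intact level rests on 18 UMIs. That Hk1 difference was not seen at equal depth: with each cell thinned to 3000 UMIs its log2 ratio was -0.03 in place of 0.72, and UMIs stood in 15.5% of injured and 15.9% of intact cells of the class. Counted at 2-fold, 3 of 9 measured genes were higher in injured EC_CAP-PV- cells (Pgk1, Pkm and Hif1a) and 2 lower (Pfkfb3 and Epas1), where 5.76% of 8156 genes were higher and 9.21% lower. In EC_ART 1 was higher and 1 lower (6.07% and 7.31% of all), and in EC_BAR 1 and 1 (6.29% and 6.87%). In EC_VEN-PV- 0 were higher and 1 lower (7.91% and 6.34%), and in EC_VEN-PV+ 0 and 2 (3.77% and 4.61%).

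**Figure D3:**
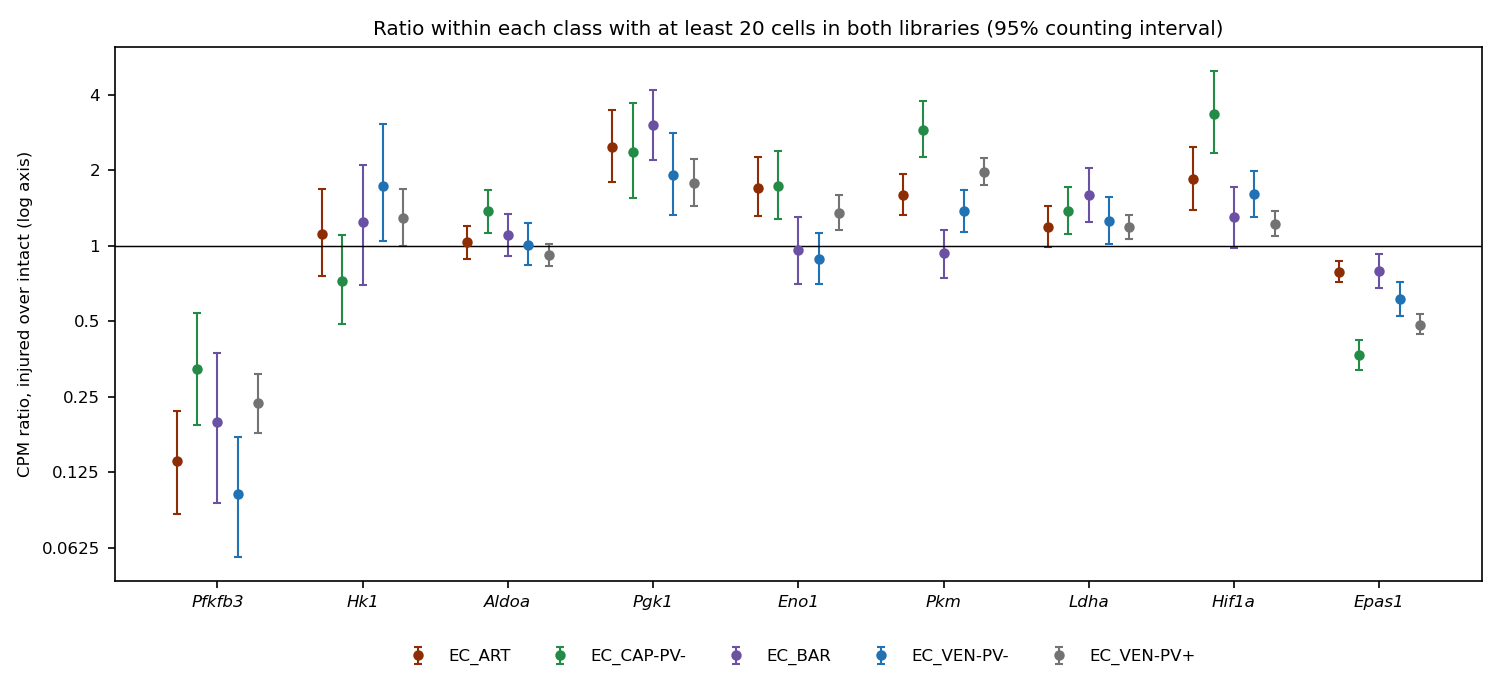
Ratio of CPM, injured over intact, on a log axis for the 9 measured genes within each of the 5 classes with at least 20 cells in both libraries (colours), with 95% counting intervals. All 5 points of Pfkfb3 and Epas1 lie under 1 and all 5 of Pgk1 above it, while EC_CAP-PV- gives the highest Pkm and Hif1a ratios.

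Classes also differed from each other within a library, which is given as a description because the authors made the classes from these cells. Epas1 was highest in EC_ART in both libraries. In injured cells its level ran from 766 CPM in EC_ART through 550 in EC_BAR, 349 in EC_CAP-PV-, 323 in EC_VEN-PV-, 269 in EC_VEN-PV+, 229 in EC_PROLIF and 223 in EC_IMMAT to 160 in EC_TIP, a 4.80-fold range. Of the 7 neighbouring pairs in that order, EC_CAP-PV- with EC_VEN-PV- and EC_PROLIF with EC_IMMAT had overlapping intervals. In intact cells the range was 1.85-fold, from 976 CPM in EC_ART to 528 CPM in EC_VEN-PV-, and 4 of 5 neighbouring pairs overlapped.

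Pkm ran the other way in injured cells, from 728 CPM (691 to 767) in EC_TIP, the sprouting front, through 546 in EC_PROLIF and 507 in EC_IMMAT to 287 CPM in EC_BAR. EC_TIP stood 1.60-fold over the other injured endothelial cells (1.51 to 1.69). EC_TIP also held the lowest Epas1, 2.01-fold under the rest. In intact cells EC_BAR had the highest Pkm, 307 CPM, and EC_CAP-PV- the lowest, 150 CPM, with intervals of all neighbours in that order overlapping.

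EC_PROLIF, the dividing cells, had the highest Pgk1 in the injured library (225 CPM against 153 CPM in the other injured cells, 1.47, 1.36 to 1.58) and the highest Ldha (414 against 308 CPM, 1.34, 1.27 to 1.42). Its Aldoa was 253 against 335 CPM, 1.32-fold lower (1.24 to 1.42). Median UMIs per cell were 24212.5 in injured EC_PROLIF, above every other class, and the part of depth in these levels was not tested. Eno1 was also highest there, at 244 CPM, with an interval that overlaps its neighbour EC_IMMAT at 233 CPM. The Pgk1 interval of EC_PROLIF (211 to 240 CPM) likewise overlaps that of injured EC_BAR, at 200 CPM (156 to 252).

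Hif1a was highest in the venous-labelled classes of both libraries. In injured cells it had 351 CPM in EC_VEN-PV- and 315 CPM in EC_VEN-PV+, against 174 CPM in EC_ART, the lowest. In intact cells it had 219 and 257 CPM in those 2 classes, against 94.6 CPM in EC_ART and 70.0 CPM in EC_CAP-PV-. Pfkfb3 showed no neighbouring pair of classes apart in either library, with 11.2 to 28.2 CPM over 8 injured classes and 26.6 to 142 CPM over 6 intact classes. Classes further apart in an order can still differ. For Pfkfb3, intact EC_BAR was 1.52-fold over the other intact cells (1.26 to 1.83). Intact EC_CAP-PV+, with 5 UMIs, was 4.19-fold under the other intact cells (1.78 to 13.0). Hk1 had 48.1 to 71.1 CPM over the injured and 36.6 to 86.4 CPM over the intact classes, and no neighbouring pair was apart. Its level in intact EC_CAP-PV- was 1.74-fold over the other intact cells (1.22 to 2.44). In injured EC_PROLIF it was 1.34-fold under the other injured cells (1.15 to 1.57).

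**Figure D4:**
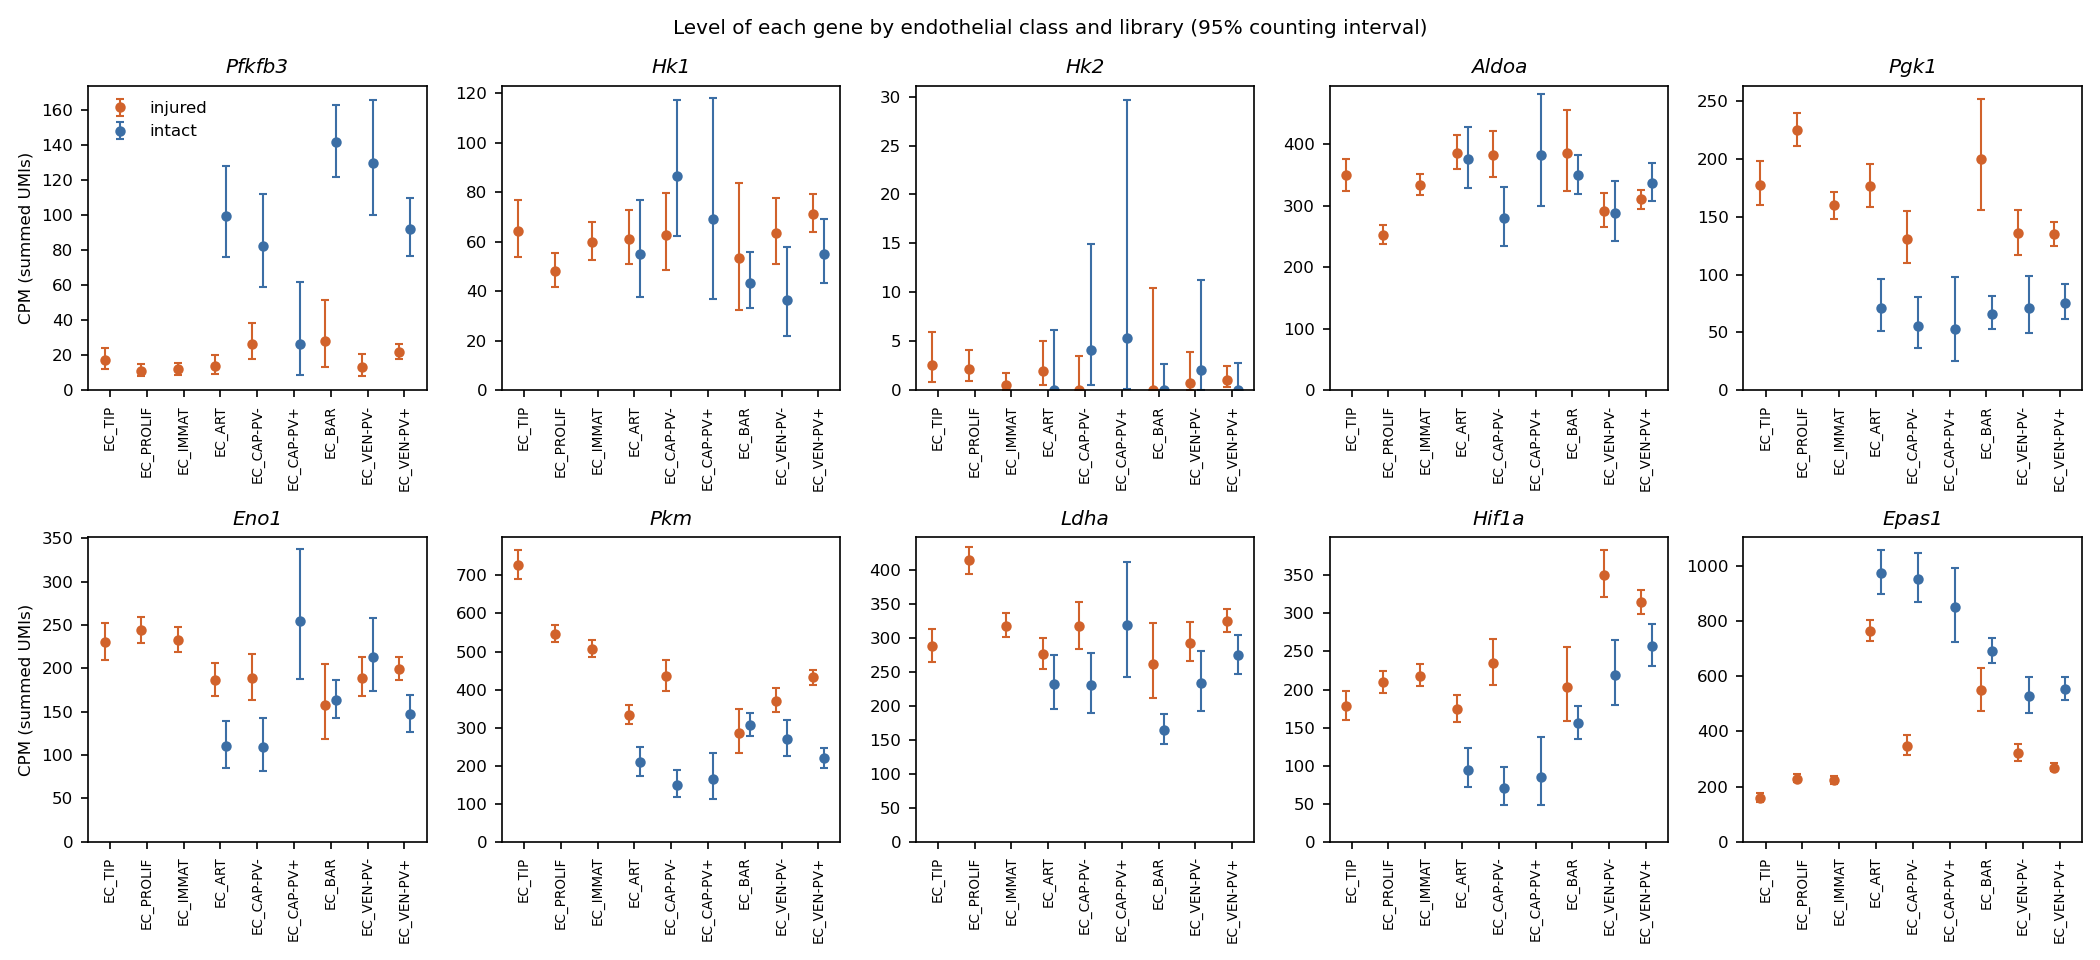
Level of each of the 10 genes (CPM, y axis of each panel starting at 0) by endothelial class, in injured (orange, left) and intact (blue, right) cells, with 95% counting intervals and only where at least 20 cells were used. Epas1 runs from 160 CPM in injured EC_TIP to 976 CPM in intact EC_ART, and Pkm peaks at 728 CPM in injured EC_TIP.

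Across the 14 sums of class and library, which share library, depth and the authors' clustering, the genes most like each member were taken by Pearson's r of log2(CPM + 5) over 3076 genes. Epas1 varied most like Kitl (0.96), Ccm2l (0.96) and Laptm4a (0.95), and Pfkfb3 most like Btg3 (0.95), Gbp2 (0.95) and Gbp5 (0.94). Pgk1 varied most like Cops9 (0.97), Slc25a3 (0.96) and Rbm3 (0.96), and Pkm most like Ppp1r14b (0.95), Tubb6 (0.94) and Cct2 (0.94). Hif1a varied most like Bach1 (0.96), Tmem252 (0.94) and Rpl10 (0.92). The best matches were weaker for Ldha (Mrps16, 0.89), Eno1 (Ebna1bp2, 0.87), Hk1 (Acaa2, 0.86) and Aldoa (Ypel3, 0.76).

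Between members, Epas1 and Pkm ran most opposite (r = -0.92), and Ldha and Pgk1 both ran against Pfkfb3 (-0.80 and -0.79). Pkm and Pgk1 ran together (0.81), and Epas1 ran against Hif1a (-0.66). These values mix the difference between the libraries with the differences between classes, over 14 sums.

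Barcodes without a class, 516 in the injured and 738 in the intact library, held the hexokinase that the annotated cells lacked. Hk2 had 879 UMIs (129 CPM, 121 to 138) in injured and 314 UMIs (67.7 CPM, 60.4 to 75.7) in intact barcodes without a class, in 210 and 117 of them. Marker groups can share barcodes, so their levels cannot show whether Hk2 belongs to 1 cell type or to several. Among barcodes with at least 3 perineurial marker genes it had 207 CPM in injured and 90.5 CPM in intact barcodes. Among those with Schwann cell markers, only 20 injured and 44 intact barcodes, it had 199 and 134 CPM. Among those with fibroblast markers it had 152 and 81.7 CPM. Those with at least 3 fibroblast and under 3 pan-endothelial marker genes, a split chosen after the values were seen, numbered 185 in the injured and 416 in the intact library. Hk2 there had 207 and 97.0 CPM, in 61.6% and 24.0% of barcodes with medians of 8426 and 5413.5 UMIs. In the 105 injured and 138 intact barcodes with endothelial but not fibroblast markers it had 6.11 and 6.74 CPM. In the 137 injured and 58 intact barcodes with both it had 474 and 24 UMIs (124 and 28.8 CPM). Barcodes with both had medians of 22060 and 11844.5 UMIs. Injured barcodes with fibroblast but not endothelial markers held 399 UMIs of Hk2, fewer than those with both. Epas1 had 32.7 CPM in injured and 121 CPM in intact barcodes with fibroblast but not endothelial markers. Among all barcodes with fibroblast markers it had 137 and 201 CPM.

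**Figure D5:**
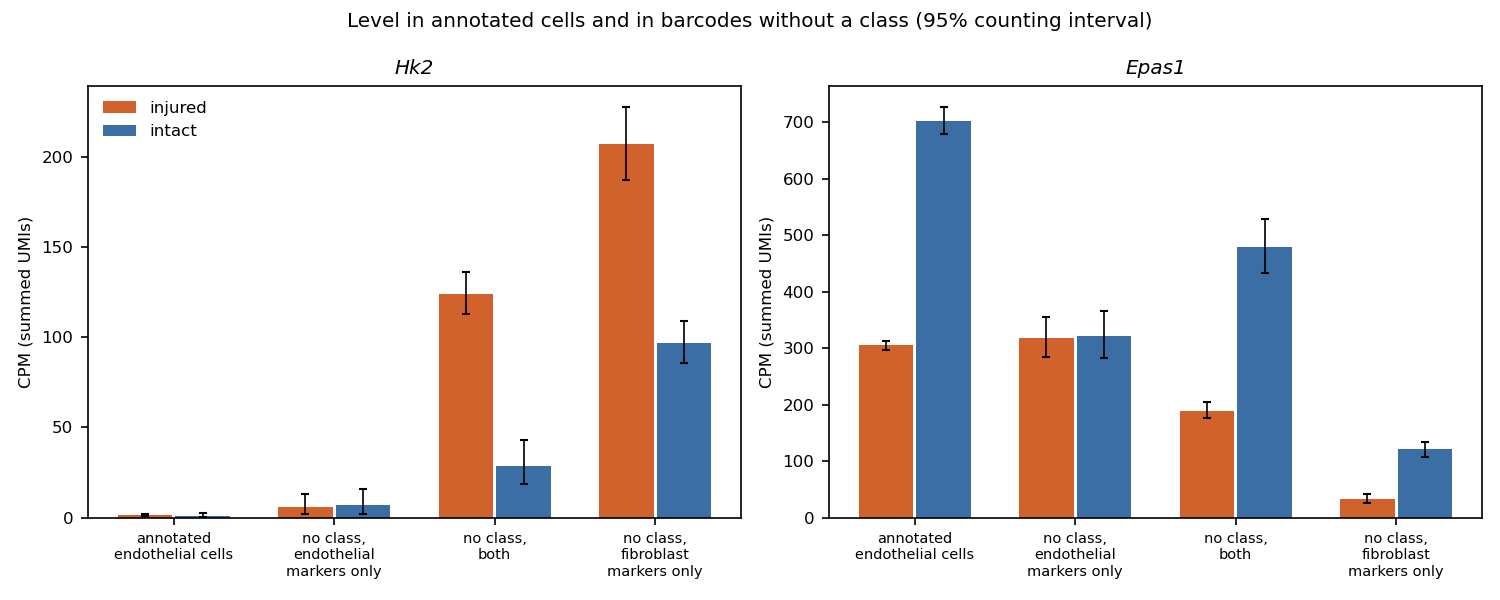
Level of Hk2 (left) and Epas1 (right) in CPM in annotated endothelial cells and in 3 groups of barcodes without a class, for injured (orange, left bar) and intact (blue, right bar) libraries, with 95% counting intervals. Hk2 reaches 207 CPM in injured and 97.0 CPM in intact barcodes with fibroblast markers only. It has 124 and 28.8 CPM in those with both marker sets, and 1.30 and 1.10 CPM in annotated cells.

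Fibroblast markers summed to 40.3 CPM in injured and 68.7 CPM in intact annotated cells with 9 of 9 genes detected in both, pericyte and smooth muscle markers to 220 and 1067 CPM, and red cell genes to 44.6 and 325 CPM. Pklr, Pgk2 and Pgam2, isozymes of other tissues, had 0 UMIs in both libraries, which allows up to 0.150 CPM in injured and 0.660 CPM in intact cells by a limit set at 3 counts. Near copies drew few UMIs: Eno1b had 28 in injured and 4 in intact cells, and the named copies of Pgk1, Aldoa and Ldha had 0. Reads of Hk1, Aldoa and Hif1a may be shared with overlapping genes on the other strand (Hk1os, Fam57b and Gm15283, with 40, 103 and 91 UMIs in injured and 6, 51 and 16 in intact cells), since the sources used here do not say whether counting used strand. Hif1a also overlaps exons of Gm49321, and Pkm those of Gm49759, on its own strand, where strand would not tell them apart, and the counts of both are not analysed here.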

How the data were processed

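The matrices deposited by the authors hold whole-number counts of UMIs per gene and barcode, without normalization. They were made with Cell Ranger 3.0.2, per the file headers. The submitters' processing notes also name Seurat 4.0.1, Cell Ranger 6.1.2, and GRCm38 and mm10 as builds. The class of each cell comes from the authors' deposited cell table, matched by library and barcode. The sources used here do not say how cells were filtered or doublets treated there, and no doublet caller was run.

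Cells whose barcode had at least 5 times their UMIs in the other library were left out (48 injured and 100 intact endothelial cells). UMIs were summed over endothelial cells or a class and scaled to CPM by the summed UMIs of the same cells, with intervals exact for Poisson counts. Shares carry exact Clopper-Pearson intervals and ratios exact conditional binomial intervals, at 95%, for counting error only. Log2 ratios had 5 CPM added, measured genes had 10 CPM or more on average over both libraries, and called means at least 2-fold. Thinning drew 3000 UMIs per cell (seed 1), which left out 51 injured and 236 intact cells. No test was made, as each condition is 1 library.

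All 10 genes are named, and others of the lists where they passed 2-fold or share a step with a member. The genes, lists and markers were chosen with earlier results of these data known. Gene positions come from GENCODE on GRCm38, where the Epas1 ID has another version. The interval code was tested on simulated data. Analysis used python 3.11.15, numpy 2.4.6, scipy 1.17.1, pandas 2.3.3 and matplotlib 3.10.9. Alternatives are given at the end.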

Additional observations from a re-analysis of the deposited data

Results flagged for a closer look

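Hk2 had 129 CPM in injured and 67.7 CPM in intact barcodes to which the authors gave no class, which no comparison of the endothelial classes uses. In annotated endothelial cells it had 1.30 CPM in injured and 1.10 CPM in intact cells. The 10 barcodes with most Hk2 held 183 of 879 UMIs in the injured and 79 of 314 in the intact library. What these barcodes are is not given by the authors' table.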

How the results depend on the processing

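No paired analysis was possible because each condition is 1 library, and no library could be left out. Of the pooled log2 ratios, Pfkfb3 ran from -2.68 to -1.75, Epas1 from -1.24 to -0.71, Pgk1 from 0.88 to 1.30, Pkm from 0.62 to 1.14, Eno1 from 0.30 to 0.53, Ldha from 0.37 to 0.76 and Hif1a from 0.42 to 0.90 over 17 alternatives each. None of these 7 changed sign, while Aldoa ran from -0.63 to 0.11, Hk1 from -0.01 to 0.24 and Hk2 from -0.12 to 0.34. Within classes, thinning to 3000 UMIs gave Hk1 1.19 in place of 0.28 in EC_BAR, and 20 CPM added gave Pfkfb3 -1.82 in place of -2.48 in EC_ART. The median of all measured genes was 0.10 with mitochondrial and ribosomal protein genes out of the total, against 0.04 in the values reported.

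The count of glycolysis genes called higher in injured cells, 2 as reported, was 1 without any shared barcode, by the mean of per-cell CPM, with classes weighted equally, with 20 CPM added and at a mean of 50 CPM, 0 with all barcodes, 4 without mitochondrial and ribosomal protein genes and 6 at 1.5-fold. The count called lower, 2, was 4 with all barcodes. The count of oxygen sensing genes called lower, 6, was 3 without shared barcodes, 2 by per-cell CPM, 0 with equal classes, 1 with all barcodes, 3 with 20 CPM added and 10 at 1.5-fold. The count called higher, 0, was 1 without mitochondrial and ribosomal protein genes, with no filter on low values, or at 1.5-fold. Of the 10 genes the count called higher, 1, was 2 without EC_BAR cells, without mitochondrial and ribosomal protein genes or at 1.5-fold, and 0 with all barcodes. The count called lower, 2, was 1 with equal classes and with all barcodes. The median of 0.46 was 0.30 with equal classes, 0.15 with all barcodes and 0.32 with no filter. Apart from alternatives that change the threshold, filter or cells by construction, the cause was not tested. Depth limits the intact library most, with a median of 4461 UMIs per cell.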
